A study of Rattus norvegicus with 60 samples.

Results

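The comparison described here was that of rat retinas 48 h after ischemia with retinas of sham control rats of the same time point. Its members were the 12 arrays whose titles name ischemia-reperfusion (IR) or sham control at 48 h, 6 rats in each group, out of 60 arrays in the series. The rats were Long Evan's hooded males of 250 to 300 g, and the labels give no age. In the IR group the pressure inside 1 eye was raised to 110 mmHg for 60 min through a cannula in the anterior chamber, fed from a lifted saline reservoir, and blood flow was then let back for 48 h. The sham control rats had the same procedure and the same anesthesia with sodium pentobarbital, but no high pressure. Total RNA of the whole retina was labeled with Cy3 and hybridized to arrays that measure 1 color, so that each value is an average over all cell types of the tissue. The arrays carried probes for 350 rat microRNAs (miRs), and 159 of these were tested, those that every array of 1 group or more had detected. The series also holds IR and sham control rats of 4 other times after ischemia, from 0 h to 7d.

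A miR is a short RNA that lies in an Argonaute protein and pairs with mRNAs mainly through its seed, the bases 2 to 8 counted from the 5′ end. MiRs with the same seed can bind the same target sites and are grouped as a family, and both strands of 1 hairpin precursor can be measured, the less used strand being marked by an asterisk in the older naming used on these arrays. The retina is known for its neuronal miRs such as miR-124 and miR-9, for the cluster of miR-183, miR-96 and miR-182 in photoreceptors and other sensory cells, and for miR-181 in the inner retina. Ischemia followed by reperfusion is a model of injury to the ganglion cells and the inner retina, in which glia react and leukocytes enter the tissue.

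The sequences below are the mature miRs on which the results turn, from RefSeq on the rat build GRCr8, written 5′ to 3′ with the seed in capitals. The first is miR-21, the miR with the smallest p among those higher in IR, which is encoded on the minus strand at chr10:71902653-71902674.
miR-21: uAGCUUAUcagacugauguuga
The next set is the family with the seed AAAGUGC, of which 3 members were called higher. These miRs come from 3 related clusters, miR-17-5p and miR-20a (chr15:98588318-98588340, plus strand) from the cluster named after miR-17, miR-93 (chr12:22156894-22156916, minus strand) and miR-106b from the cluster named after miR-106b, and miR-20b-5p (chrX:137343239-137343261, minus strand) from the cluster on the X chromosome.
miR-20a: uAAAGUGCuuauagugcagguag
miR-20b-5p: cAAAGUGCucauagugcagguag
miR-93: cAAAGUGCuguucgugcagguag
miR-106b: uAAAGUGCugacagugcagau
miR-17-5p: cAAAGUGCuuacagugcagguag
The miR with the largest rise, miR-291a-3p of the embryonic stem cell cluster, holds the same AAAGUGC from base 1 instead of base 2, so that its own seed is shifted by 1 base.
miR-291a-3p: aAAGUGCUuccacuuugugugcc
The third set holds the miR-181 family, of which 3 of 4 members passed the adjusted p and were lower in IR, with the opposite strand miR-181a*.
miR-181a: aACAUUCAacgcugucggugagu
miR-181b: aACAUUCAuugcugucggugggu
miR-181c: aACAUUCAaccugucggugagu
miR-181d: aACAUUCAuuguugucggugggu
miR-181a*: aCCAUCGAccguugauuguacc
The last set shows a pair that differs in a single base outside the seed and of which 1 passed the adjusted p (miR-27a beside miR-27b), both strands of the hairpin of miR-99b, and 3 miRs of the imprinted cluster on chromosome 6 that moved in opposite directions.
miR-27a: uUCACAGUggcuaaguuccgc
miR-27b: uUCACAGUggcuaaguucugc
miR-99b: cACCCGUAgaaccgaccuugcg
miR-99b*: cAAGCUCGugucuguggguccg
miR-539: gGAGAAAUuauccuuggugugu
miR-379: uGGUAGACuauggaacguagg
miR-376a: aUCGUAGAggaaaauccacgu
In the family with AAAGUGC, miR-20a and miR-20b-5p differ in 2 of 23 bases (U1C and U10C, the base of miR-20a first, positions counted from the 5′ end), and miR-20a and miR-106b differ in 3 of the 21 bases they share. MiR-27a and miR-27b differ in 1 of 21 bases (C19U, the base of miR-27a first). Probes for miRs this close can take up some of each other's RNA.

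The arrays of the IR rats were dimmer. Brightness, the log2 75th percentile of signal over the 57 miRs detected on every array of the series, lay between 7.84 and 10.24 on the IR arrays (median 9.27) and between 9.87 and 10.71 on the sham control arrays (median 10.49). The IR mean was lower by 1.19, with an exact two-sided permutation p of 0.00649 and an adjusted p of 0.00974 over 3 array measures. Detected miRs per array numbered 106 to 171 with IR (median 118) and 126 to 208 in the sham controls (median 158.5), a difference of -39.8 miRs with an exact p of 0.0368. The ranges of both measures overlapped between the groups, and the exact p for detected miRs ranged from 0.00866 to 0.0758 when single arrays were left out, rising above 0.05 without IR replicate 1, 2, 3, 4 or 6 or sham control replicate 3, 5 or 6. Within the 3 scan days, each with 2 arrays per group, the difference in detected miRs was -8, -50 and -61.5, and that in brightness was -0.44, -1.70 and -1.44. At the ends of the brightness ranges, IR replicate 6 was the dimmest array of all, IR replicate 5 the brightest IR array and sham control replicate 1 the dimmest sham control array, and of these only sham control replicate 1 lay far from its group (Dixon's ratio 0.70, past its critical value). At 48 h no slide held arrays of both treatments, so slide and treatment cannot be told apart there. All levels below are log2 of the signal after each array was scaled to that percentile. They have a floor of 2.63, the median over all arrays of the series of the lowest level of a detected miR. At 48 h that lowest level ranged from 0.49 (sham control replicate 6) to 4.08 (IR replicate 3), so a level above the floor can still be undetected.

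**Figure D1:**
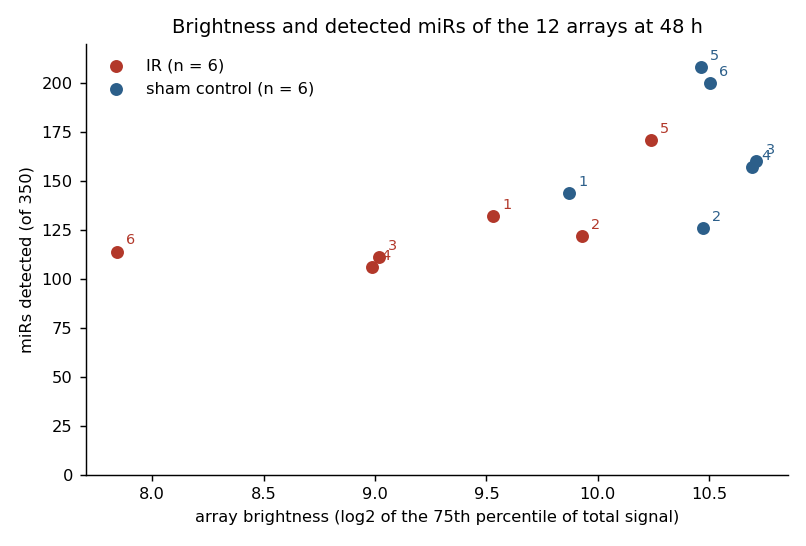
Brightness of each array (x axis, log2 signal units) against the number of miRs detected on it (y axis, of 350) for the 12 arrays of 48 h, each point 1 rat, numbered by replicate. The sham control arrays reach 208 detected miRs and brightness 10.71, and the dimmest IR array lies at 7.84.

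In IR retinas at 48 h, 16 miRs were called higher and 6 lower. To be called, a miR had to differ by a factor of 2 or more and to have an adjusted p (limma, Benjamini-Hochberg over the 159 miRs tested) not above 0.05. The 22 calls were 13.8% of the miRs tested, with 10.1% higher and 3.77% lower. The largest rises were those of miR-291a-3p, miR-493, miR-21 and miR-539, and the largest fall was that of miR-379, while miR-376a fell more with a floor of 1 unit (-2.85), with the mean over probes (-2.13) and in the authors' table (-2.62). Without the fold change threshold 87 miRs (54.7%) passed the adjusted p, 31 of them higher (19.5% of those tested) and 56 lower (35.2%), the shares against which the counts of the lists below are to be read. In simulated data, where 40 miRs per draw were changed by 1.5 on the log2 scale, unchanged miRs also passed it. Their number per draw had a median of 24 and reached 81, so passing it alone is not proof of a change. The simulated arrays had independent noise and set changes, so these numbers do not estimate how many of the 87 were unchanged. Of the 87, 28 no longer passed without at least 1 of the 12 arrays, among them 2 called miRs, miR-207 and miR-346. With slide as a block, 18 miRs were called and 15 of the 22 calls were kept, the lost ones being let-7d*, miR-125a-3p, miR-207, miR-346, miR-378*, miR-185 and miR-376a. No slide held both treatments at 48 h, and only 2 of the 9 slides of the series did. The slide block, here and below, therefore rests on arrays of other time points and cannot part slide from treatment at 48 h. Over all miRs tested the median difference between IR and sham control was -0.15 on the log2 scale, and the medians of the lists below are read against it.

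The balance of higher and lower calls moved with the scaling. Of the 22 calls 72.7% were higher, against 56.5% with the 75th percentile over all miRs, 52.4% with that over the miRs found on all 12 arrays, 50% after quantile normalization, 2.48% without normalization, 25.6% with the log2 processed signals averaged over probes and 100% with normexp background correction. The median difference was -0.29, -0.38, -0.28, -1.29, -0.52 and 0.85 under these in turn. Set against the median of each scaling, all 22 called miRs kept their side under the first 5 of these and 17 did under normexp. In 24 of 159 miRs (15.1%) the IR and sham control values did not overlap, and 9 of these were among the calls, 8 higher and 1 lower. Of the called miRs 7 were detected on all 12 arrays, and all of these were higher: miR-21, miR-20a, miR-93, miR-466b, miR-672, miR-206 and miR-539.

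**Figure D2:**
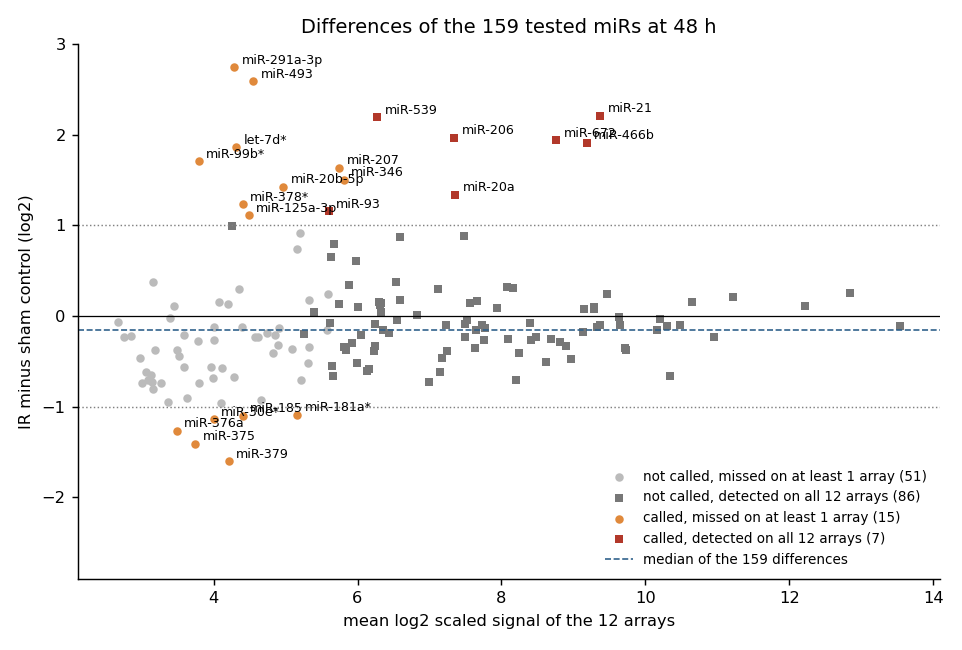
Mean level of each of the 159 miRs tested (x axis, log2 scaled signal) against its difference between IR and sham control at 48 h (y axis, log2), with called miRs marked. The 16 called higher lie from 1.11 to 2.74, the 6 called lower from -1.60 to -1.09, and the median of all lies at -0.15.

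MiR-21, known for its rise in injured and inflamed tissues and in reactive glia, was higher after 48 h of reperfusion. Its level lay between 9.02 and 11.18 in IR (median 10.65) and between 8.03 and 8.63 in the sham controls (median 8.26). Every IR retina was above every sham control retina, and the lowest IR value was that of replicate 5. The difference was 2.20 on the log2 scale (SE 0.16), 4.61-fold, with an adjusted p of 2.46e-16 by limma. It was 2.48, 2.40 and 1.73 within the 3 scans, and both probes of the miR gave values close to each other, 2.10 and 2.20. With array brightness as a covariate it was 2.08, and without IR replicates 5 and 6 and sham control replicate 1 it was 2.53. As the RNA came from whole retina, a change in the number of cells that hold a miR and a change in its amount per cell cannot be told apart, here and below.

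Of the AAAGUGC family, the miR-17 group known for its part in cell proliferation, 4 members were tested, 3 were called higher and the fourth passed the adjusted p on the higher side. The median difference of the 4 was 1.25 on the log2 scale, against -0.15 over all miRs tested. MiR-20a lay between 7.28 and 8.37 in IR (median 8.11) and between 6.36 and 6.97 in the sham controls (median 6.69), a difference of 1.34 (SE 0.11), 2.53-fold, with an adjusted p of 4.81e-15. Its groups did not overlap, and it kept its sign under every scaling tried. MiR-93 lay between 5.31 and 7.01 in IR (median 6.24) and between 4.44 and 5.30 in the sham controls (median 5.15), a difference of 1.15 (SE 0.24, adjusted p 6.69e-05). Its groups were apart by little, its difference fell to 0.99 without IR replicate 2, which takes it below the fold change threshold, and it was -0.04 without normalization between arrays.

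MiR-20b-5p differed by 1.42 (SE 0.43, adjusted p 0.00455), with levels from 4.68 to 6.86 in IR (median 5.69) and from 2.87 to 4.75 in the sham controls (median 4.59). The groups overlapped, the IR values being spread widely and sham control replicate 4 lying far below its group. MiR-106b lay between 6.50 and 6.79 in IR and between 6.28 and 7.02 in the sham controls, a difference of only 0.18 (adjusted p 0.0475), its 2 probes had opposite signs, 0.22 and -0.27, and it no longer passed in 9 of the 12 fits that left out 1 array. MiR-17-5p reached detection on 3 IR and 5 sham control arrays and was not tested, and its level lay between 4.58 and 5.92 in IR and between 3.44 and 4.46 in the sham controls, with no overlap. Of the partners of these miRs in the clusters, the 4 tested members of the group of miR-19, miR-25 and miR-92a, none was called and the median difference was -0.10. MiR-92a was the highest among them at 0.32 (adjusted p 0.000674), miR-19b gave -0.05 and miR-25 gave -0.15. MiR-291a-3p, which carries the same 7 bases shifted by 1, is described with the dimmer miRs.

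**Figure D3:**
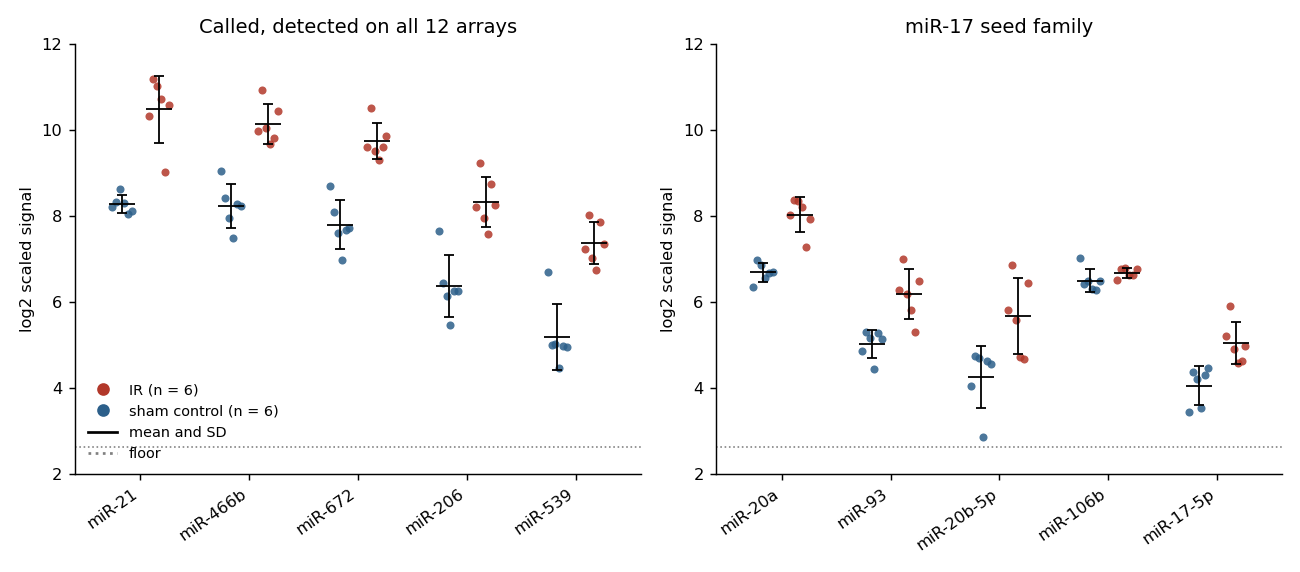
Level on each array (y axis, log2 scaled signal; points, 1 rat each; bars, mean ± SD of 6) for 5 miRs called higher and for the family with the seed AAAGUGC, IR beside sham control. MiR-21 and miR-20a have no overlap between the groups, while miR-106b overlaps, from 6.50 to 6.79 in IR against 6.28 to 7.02 in the sham controls.

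A further 4 miRs that were detected on all 12 arrays were higher by 3.76-fold to 4.57-fold. MiR-206, otherwise known from skeletal muscle, lay between 7.59 and 9.23 in IR (median 8.23) and between 5.47 and 7.66 in the sham controls (median 6.25). Its difference was 1.96 (SE 0.42, adjusted p 1.03e-04), and only the lowest IR and the highest sham control value overlapped. MiR-539, from the imprinted cluster on chromosome 6, lay between 6.74 and 8.02 in IR (median 7.29) and between 4.46 and 6.70 in the sham controls (median 4.99), a difference of 2.19 (SE 0.37, adjusted p 3.55e-06) with no overlap.

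MiR-466b, one of a large set of near-identical rodent hairpins, lay between 9.67 and 10.93 in IR (median 10.01) and between 7.48 and 9.04 in the sham controls (median 8.25), a difference of 1.91 (SE 0.32, adjusted p 3.55e-06). MiR-672 lay between 9.31 and 10.51 in IR (median 9.60) and between 6.97 and 8.70 in the sham controls (median 7.70), a difference of 1.94 (SE 0.34, adjusted p 6.55e-06). Neither overlapped between the groups. All 4 miRs shared 1 feature of the sham controls: sham control replicate 1, the dimmest sham control array, had the highest value of its group. Without that array their differences were 2.22 for miR-206, 2.50 for miR-539, 2.07 for miR-466b and 2.12 for miR-672. With array brightness as a covariate they were 2.23, 2.32, 1.76 and 1.93. The other skeletal muscle miRs on the array, miR-1, miR-133a and miR-133b, were detected on at most 1 array of either group. When miRs detected on any array of the series were tested, miR-1 was called too, with a difference of 1.08.

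The other 9 miRs called higher, miR-20b-5p among them, were each undetected on at least 1 of the 12 arrays. MiR-493, also of the chromosome 6 cluster, lay between 4.07 and 7.44 in IR (median 5.90) and between 2.69 and 3.91 in the sham controls (median 3.15), and was above detection on 6 IR and 2 sham control arrays. Its groups did not overlap, with a difference of 2.59 (SE 0.42, adjusted p 2.17e-06). MiR-291a-3p lay between 3.08 and 7.27 in IR (median 5.95) and between 2.63 and 3.37 in the sham controls (median 2.76), and reached detection on 5 IR and 2 sham control arrays. It had the largest difference of all, 2.74 (SE 0.46, adjusted p 4.22e-06), with an overlap only through IR replicate 5. MiR-99b* lay between 3.84 and 5.34 in IR (median 4.82) and between 2.63 and 3.55 in the sham controls (median 2.85), a difference of 1.71 (SE 0.30, adjusted p 7.61e-06) with no overlap.

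The remaining 6 were let-7d* (1.86), miR-207 (1.64), miR-346 (1.503), miR-378* (1.23) and miR-125a-3p (1.11), beside miR-20b-5p given above. All 6 overlapped between the groups. MiR-207, with a level between 2.63 and 9.02 in IR, and miR-346, with one between 3.09 and 8.65, barely passed, with adjusted p of 0.0499 and 0.0423. Their calls were lost without any of IR replicates 1, 2, 3, 4 and 6 or sham control replicates 1 to 4, and with array brightness as a covariate their differences were 0.02 and -0.02. In many of the miRs called higher the IR values were lowest on the brightest IR array. That array, IR replicate 5, had the lowest IR value in 12 of the 16, the exceptions being miR-206, miR-539, miR-466b and miR-672. IR replicate 6, the dimmest, had the highest in 6 of the 16. With brightness as a covariate, let-7d* (0.70, adjusted p 0.325) and miR-378* (0.58, adjusted p 0.117) no longer passed, miR-125a-3p gave 0.997 and fell below the fold change threshold, and miR-493 (1.77), miR-291a-3p (1.75) and miR-99b* (2.20) still passed. With slide as a block the adjusted p was 0.0729 for let-7d*, 0.155 for miR-378*, 0.0671 for miR-125a-3p, 0.242 for miR-207 and 0.307 for miR-346. Without IR replicate 6 miR-378* gave 0.88, below the fold change threshold. In each scan taken alone, 15 of the 16 miRs kept the sign, the exception being miR-207, with -0.02 in the third scan.

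The 6 miRs called lower were each detected on only 1 or 2 of the 6 IR arrays. MiR-379, of the chromosome 6 cluster, lay between 2.63 and 4.65 in IR (median 3.23) and between 4.39 and 5.56 in the sham controls (median 5.11), a difference of -1.60 (SE 0.29, adjusted p 8.07e-06), and was above detection on 2 IR and 6 sham control arrays. MiR-376a, of the same cluster, lay between 2.63 and 3.94 in IR (median 2.63) and between 3.499 and 4.53 in the sham controls (median 4.19), a difference of -1.27 (SE 0.28, adjusted p 1.33e-04). MiR-375, known from endocrine cells such as those of the pancreatic islets, lay between 2.63 and 3.82 in IR (median 2.67) and between 3.77 and 5.06 in the sham controls (median 4.44), a difference of -1.41 (SE 0.23, adjusted p 3.55e-06). In all 3 the highest IR value was that of replicate 5 and the groups overlapped by that array, in miR-375 also by IR replicate 1.

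The other 3 were miR-30e* (-1.14, adjusted p 4.08e-05), miR-185 (-1.10, adjusted p 2.29e-04) and miR-181a* (-1.09, adjusted p 2.74e-05). Only miR-181a* had groups apart, with 4.30 to 5.46 in IR (median 4.43) and 5.48 to 6.26 in the sham controls (median 5.61). IR replicate 5 had the highest IR value in all 6 miRs called lower. With brightness as a covariate miR-379 (-1.11) and miR-375 (-1.05) stayed past both thresholds, and the other 4 lay between -0.83 and -0.65, past the adjusted p but below the fold change of 2. With slide as a block miR-185 (-0.90, adjusted p 0.0721) and miR-376a (-0.74, adjusted p 0.108) no longer passed. Without IR replicate 6, miR-185 (-0.86) and miR-30e* (-0.98) lost the call, and without sham control replicate 1, miR-181a* (-0.98) did. All 6 were higher in IR with normexp background correction, from 0.74 to 1.08, where the median over all miRs tested was 0.85.

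Among the miRs of retinal neurons, 12 of 13 were tested and none was called. In all, 6 passed the adjusted p, each lower in IR, beside 54.7% of all miRs tested past it and 35.2% on the lower side, and the median of the 12 was -0.31, beside -0.15 over all. MiR-124, the most widely used marker of neurons, lay between 13.27 and 13.86 in IR (median 13.46) and between 13.20 and 14.30 in the sham controls (median 13.56), a difference of -0.11 (SE 0.11, adjusted p 0.449). MiR-9 (-0.10), miR-9* (-0.13) and miR-218 (0.04) likewise did not pass, with overlapping groups. Those that passed were miR-138 (-0.96, adjusted p 1.13e-05), miR-129* (-0.71, adjusted p 1.98e-05), miR-219-5p (-0.57), miR-7a (-0.55), miR-128 (-0.33) and miR-129 (-0.29). MiR-128 still passed only without IR replicate 1 or 5 or sham control replicate 1 (adjusted p up to 0.138 without another array), and miR-129 only without IR replicate 4 or 5 or sham control replicate 2 or 3 (up to 0.171). MiR-219-5p, which is on the glial list below as well, no longer passed without IR replicate 2, 4 or 6 or sham control replicate 1 or 3 (up to 0.143). MiR-138, which is enriched in the brain and acts at dendritic spines, reached detection on 1 IR and 5 sham control arrays, and its groups did not overlap. MiR-129* was detected on all 12 arrays, with 7.58 to 8.07 in IR and 8.11 to 8.85 in the sham controls and no overlap. With normexp, the differences of miR-138 (1.02), miR-219-5p (1.19), miR-7a (0.78) and miR-128 (0.64) turned positive, beside a median of 0.85 over all miRs tested.

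The cluster of miR-183, miR-96 and miR-182, which marks photoreceptors and was detected on all 12 arrays, split. MiR-183 lay between 12.89 and 13.14 in IR (median 12.93) and between 12.07 and 12.93 in the sham controls (median 12.83), a difference of 0.25 (SE 0.09, adjusted p 0.0203). MiR-182 was lower by 0.38 (SE 0.10, adjusted p 0.00132), and miR-96 differed by 0.11 (adjusted p 0.452). The groups of all 3 overlapped, and sham control replicate 1 had the lowest sham value of miR-183 and the highest of miR-182. Without that array miR-183 gave 0.12 (adjusted p 0.164), miR-182 gave -0.20 (adjusted p 0.00761) and miR-96 gave -0.00022, and without IR replicate 3 miR-183 did not pass. The 2 probes of miR-183 had opposite signs, -0.17 and 0.27. The difference of miR-183 was 0.01 with the percentile over miRs found on all 12 arrays and -0.08 with slide as a block, and it was negative without normalization, with the mean over probes and with normexp. Of the miRs that respond to neuronal activity, miR-132 was lower by 0.29 (SE 0.11, adjusted p 0.0204), with 5.57 to 6.07 in IR and 6.00 to 6.18 in the sham controls, and did not pass without IR replicate 2, 3 or 6, while miR-212 of the same transcript differed by 0.16 (SE 0.18, adjusted p 0.478).

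**Figure D4:**
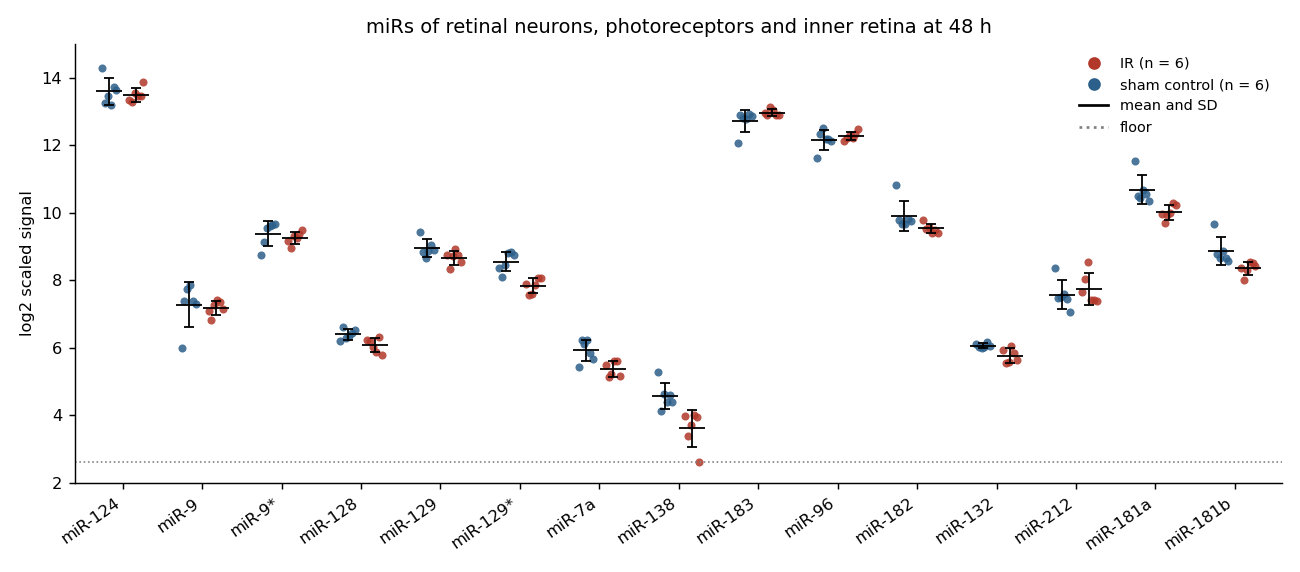
Level on each array (y axis, log2 scaled signal; points, 1 rat each; bars, mean ± SD of 6) for miRs of retinal neurons, the photoreceptor cluster, miR-132 and miR-212, and miR-181a and miR-181b. MiR-129*, miR-138, miR-181a and miR-181b have no overlap between IR and sham control, while miR-124 ranges from 13.27 to 13.86 in IR, within the sham control range of 13.20 to 14.30.

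In the miR-181 family, known from the inner retina, most strands were lower. Of the 5 tested, 4 passed the adjusted p on the lower side and 1 of these, miR-181a*, was called, with a median difference of -0.52, beside 35.2% of all miRs tested past the adjusted p on the lower side. MiR-181a lay between 9.69 and 10.30 in IR (median 9.98) and between 10.36 and 11.53 in the sham controls (median 10.53), a difference of -0.66 (SE 0.12, adjusted p 9.56e-06). MiR-181b differed by -0.51 (SE 0.11, adjusted p 7.38e-05). For both miRs all IR retinas were below all sham control retinas, and both stayed lower under every scaling tried and in each scan, miR-181a at -1.19, -0.59 and -0.20 in turn. Without sham control replicate 1, which had their highest values, they differed by -0.49 and -0.35. MiR-181c gave -0.52 (adjusted p 8.70e-05, turned to 0.61 with normexp), whereas miR-181d, which differs from miR-181b in 1 of 23 bases, gave 0.24 (adjusted p 0.188).

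Among the miRs of leukocytes and inflammation, 8 of 9 were on the array and 4 were tested. Besides miR-21, miR-146b, a brake on signals of innate immunity, was higher without reaching the fold change of 2. Its level lay between 5.48 and 6.55 in IR (median 6.16) and between 4.61 and 5.57 in the sham controls (median 5.37), a difference of 0.80 (SE 0.12, adjusted p 8.36e-07), with an overlap only by IR replicate 5, and of -0.40 without normalization. The lymphocyte miRs were lower, miR-150 by 0.73 (adjusted p 0.0013, detected on 1 IR and 4 sham control arrays) and miR-342-3p by 0.27 (adjusted p 5.67e-04, groups apart), both turned by normexp. Of the defining markers of leukocytes, miR-142-3p, miR-142-5p and miR-146a were detected on none of the 12 arrays, and miR-223 of the neutrophils was found on only 2 arrays of each group and not tested. MiR-223 lay between 4.23 and 6.72 in IR and between 2.68 and 3.96 in the sham controls. The summed level of the list ranged from 9.66 to 11.36 in IR and from 9.15 to 9.41 in the sham controls, and without miR-21 from 8.18 to 8.498 in IR and from 8.07 to 8.41 in the sham controls, with overlap. The part of entering leukocytes in the rise of miR-21 was not tested.

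Of the miRs that respond to hypoxia and p53, miR-210, which hypoxia induces, was lower by 0.33 (SE 0.13, adjusted p 0.0255), with 8.47 to 8.91 in IR and 8.77 to 9.85 in the sham controls. It gave -0.76, 0.04 and -0.29 within the 3 scans and -0.18 (adjusted p 0.167) without sham control replicate 1, and it did not pass without IR replicate 2 or 6 either. MiR-34a, a target of p53, was higher by 0.30 (SE 0.08, adjusted p 0.00126), with 7.08 to 7.33 in IR and 6.91 to 7.05 in the sham controls and no overlap, though its difference was -0.08 with slide as a block. Neither reached the fold change of 2. Of the glial list, which shares miR-219-5p with the list of retinal neurons, 7 miRs were tested and none was called. In it 4 passed the adjusted p on the lower side, miR-219-5p among them, and 1 on the higher (35.2% and 19.5% over all miRs tested). The extremes were miR-99b (-0.71) and miR-99a (0.24). The miRs of pigment epithelium, lens and cornea gave no member past the adjusted p among 4 tested, with miR-204 at -0.11 and miR-211 at -0.26. Of the vessel miRs 2 were tested and neither passed (miR-126 -0.32, miR-143 0.13), and of the lists for erythrocytes, liver and the epithelial miR-200 family no member was tested.

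Among the broadly expressed families, the let-7 guide strands gave no member past the adjusted p among 8 tested, from -0.21 for miR-98 to 0.16 for let-7b, with a median of -0.10. The miR-30 guide strands had 3 of 5 past the adjusted p, all lower, from -0.26 for miR-30a to -0.10 for miR-30d, though miR-30a gave -0.13 without sham control replicate 1 (adjusted p 0.0533) and miR-30b-5p did not pass in 8 of the 12 fits that left out 1 array. MiR-103 (-0.40, adjusted p 5.56e-06) and miR-107 (-0.23, adjusted p 7.40e-04), which differ in 1 of 23 bases, were both lower with groups apart. MiR-29a was higher by 0.21 (adjusted p 0.0356) and miR-29c lower by 0.23 (adjusted p 0.0481), and neither passed without IR replicate 2 or 3 or sham control replicate 3, among others, miR-29c giving -0.14 without sham control replicate 1. In the miR-15/16 family miR-15b was higher by 0.60 (adjusted p 2.48e-05), while its 2 probes disagreed in sign, and miR-16 of the same cluster gave 0.07. MiR-130a, a miR of vessels and blood cell precursors, had the largest fall among the miRs detected on all 12 arrays, at -0.72 (SE 0.13, adjusted p 9.56e-06), with 6.41 to 6.88 in IR, 6.98 to 7.83 in the sham controls and no overlap, and a turn to 0.11 with normexp. The next falls of that kind were those of miR-129*, miR-181a, miR-140* (-0.66, adjusted p 7.27e-04) and miR-127 (-0.62, adjusted p 4.63e-05), the last 2 with overlapping groups and turned by normexp.

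MiR-27a, which differs from miR-27b in a single base outside the seed, lay between 6.55 and 7.45 in IR (median 7.04) and between 5.94 and 6.45 in the sham controls (median 6.10). Every IR value was above every sham control value, with a difference of 0.87 (SE 0.12, adjusted p 7.72e-08). MiR-27b lay between 6.45 and 6.71 in IR and between 6.30 and 6.68 in the sham controls, a difference of -0.04 (SE 0.06, adjusted p 0.557). Both are neighbors of a miR-23 and a miR-24 in clusters on different chromosomes (19 for miR-27a and 17 for miR-27b in GRCr8), and miR-23a gave 0.12, miR-23b -0.16 (adjusted p 0.0395, lost in 9 of the 12 fits that left out 1 array) and miR-24 0.14. The difference between miR-27a and miR-27b was not tested.

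The imprinted cluster on chromosome 6, which is expressed from the maternal chromosome and holds many neuronal miRs, moved both ways. Its 38 members on the array have probes between 134170397 and 134425147 of chromosome 6 in build rn4, and 19 were tested. Of these, 2 were called higher (miR-539 and miR-493) and 2 lower (miR-379 and miR-376a), 3 passed the adjusted p on the higher and 9 on the lower side, and the median was -0.38. Over all miRs tested, 10.1% were called higher and 3.77% lower, and 54.7% passed the adjusted p. The members past the adjusted p but not called ran from miR-495 at -0.95 through miR-127 at -0.62 and miR-434 at -0.47 to miR-382 at 0.74, which did not pass in 8 of the 12 fits that left out 1 array. In all, 13 members were detected on none of the 12 arrays.

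The opposite strands of called miRs were compared next. MiR-99b* was called higher (1.71), and miR-99b of the same hairpin was lower by 0.71 (adjusted p 0.0302, not past 0.05 without IR replicate 6 or sham control replicate 1), with 4.49 to 5.11 in IR, 5.16 to 6.27 in the sham controls and no overlap. For 3 further hairpins the strand called higher had a partner that did not pass: let-7d gave -0.10, miR-125a-5p -0.08 and miR-378 -0.15. Where the opposite strand was called lower, the guide strand was lower as well, miR-30e by 0.25 (adjusted p 0.00255) and miR-181a by 0.66. Of the 18 strands marked by an asterisk that were tested, 3 were called higher and 2 lower, 4 passed the adjusted p on the higher and 9 on the lower side, and the median was -0.42, beside 10.1% called higher, 3.77% called lower and 54.7% past the adjusted p over all miRs tested.

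Of 18 miRs that the study ranks as highly connected in its networks of 24 h and 7d, 12 were tested at 48 h, 5 were called higher (miR-291a-3p, miR-539, miR-206, miR-466b and miR-207) and 1 lower (miR-185). The study chose them on samples of this series, so their counts are not independent evidence of a direction. Past the adjusted p were 5 on the higher and 6 on the lower side, and the median of the 12 was -0.29. Over all miRs tested, 10.1% were called higher and 3.77% lower. On the higher side 19.5% of all passed the adjusted p and on the lower side 35.2%, with a median of -0.15.

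Each of the 22 miRs called at 48 h was also called at another time point or more, and none at 48 h alone. At 24 h 29 miRs (18.2%) were called, 19 of them shared with 48 h, which is 86.4% of the 48 h calls and 65.5% of the 24 h calls. At 7d 29 miRs (18.2%) were called, with 16 shared (72.7% of the 48 h and 55.2% of the 7d calls), at 0 h 11 (6.92%), with 10 shared (45.5% and 90.9%), and at 2 h 8 (5.03%), with 7 shared (31.8% and 87.5%). Every shared miR had the same direction at both times, and 15 were called at 24 h, 48 h and 7d. The time points have control rats of their own, but only 2 of the 9 slides of the series held both treatments. The part of slide in the shared calls was not tested.

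The called miRs fell into patterns over time. MiR-466b, miR-672, miR-206 and miR-539 were called at all 5 time points, so that their difference was present at 0 h, with 1.52, 1.71, 2.04 and 2.23. MiR-21 was not called at 0 h (0.04) or 2 h (-0.00016), reached 2.21 at 24 h and 2.20 at 48 h, and was still called at 7d (1.23). MiR-20a gave 0.29 at 0 h, 0.41 at 2 h, 1.21 at 24 h, 1.34 at 48 h and 0.90 at 7d, the last below the fold change of 2. MiR-93 and miR-20b-5p were called at 2 h and 48 h alone, with 1.03 and 1.63 at 2 h and 0.11 and -0.23 at 7d. MiR-291a-3p, miR-493, let-7d*, miR-378* and miR-125a-3p, called higher at 48 h, were called at 0 h too. The miRs called lower were largely those of 24 h and 7d too. MiR-379, miR-375, miR-376a and miR-30e* were called at all 3 late time points, and miR-375 was already called at 0 h. MiR-185 was called at 24 h and 48 h, and miR-181a* at 48 h and 7d.

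The IR effect at 48 h was set against that at 24 h and 7d in the same limma fit. Against 24 h no miR passed the adjusted p among 159 (0%), and 19 had an unadjusted p under 0.05. Against 7d 5 miRs passed (3.14%), and 32 had an unadjusted p under 0.05. MiR-21 was higher by 2.20 at 48 h and 1.23 at 7d, a difference of 0.97 between the effects (SE 0.23, adjusted p 0.00884). MiR-99b* had an effect of 1.71 at 48 h and 0.06 at 7d (difference 1.64, adjusted p 0.0144). The other 3 had no call at 48 h: miR-338, a miR of oligodendrocytes, was lower by 0.36 at 48 h and differed by 0.01 at 7d (difference -0.36, adjusted p 0.0144), miR-497 gave -0.20 and 0.31 (difference -0.50, adjusted p 0.00884), and miR-551b gave -0.19 and -0.996 (difference 0.81, adjusted p 0.0278). Differences of the 48 h effect from those at 0 h and 2 h were not tested.

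**Figure D5:**
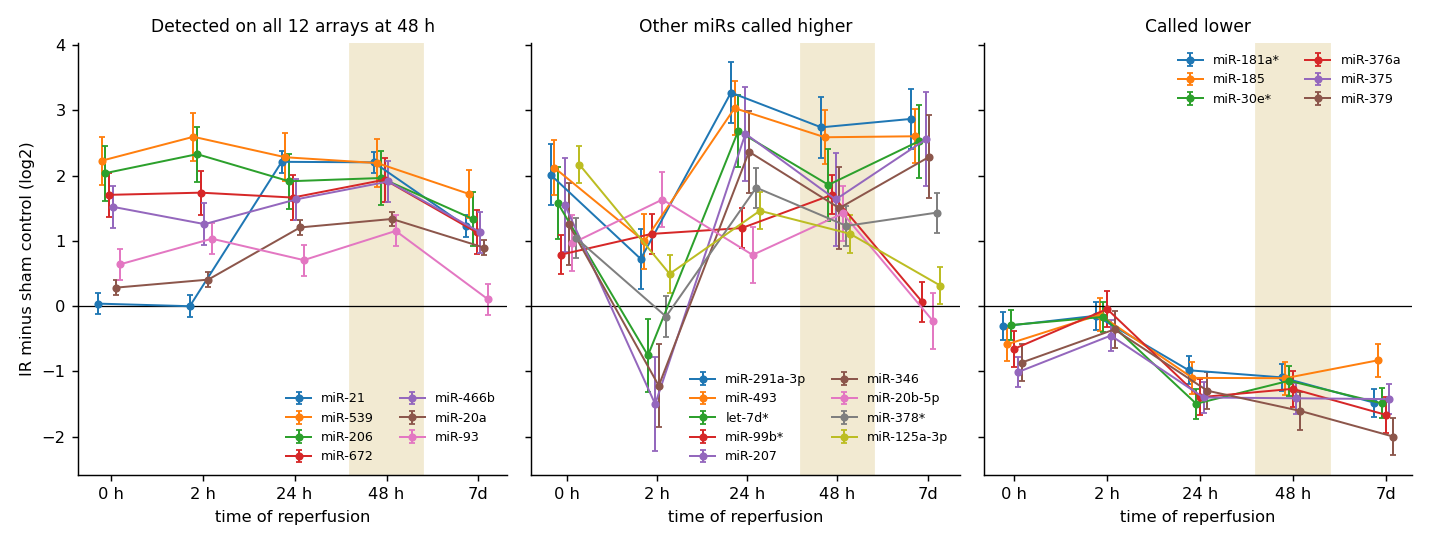
Difference between IR and sham control (y axis, log2; points with bars, difference ± SE from limma) at each of 5 time points from 0 h to 7d (x axis, categories) for the 22 miRs called at 48 h, in 3 panels. MiR-21 lies at 0.04 at 0 h and 2.20 at 48 h, whereas miR-539 lies at 2.23 and 2.19.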

How the data were processed

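The miR arrays were Agilent rat arrays of 1 color, 1 per rat, with 100 ng of total RNA of RIN above 8. Per the file headers, the authors extracted spot intensities with Agilent Feature Extraction 9.5.3.1, which subtracts background and sums the probes of a miR, and the array design places probes on build rn4. The deposited intensity values were not normalized between arrays. A table of log2 values of 211 rat miRs, which the authors scaled to the 75% quantile, was deposited as well and served as an alternative. Here the total intensities were divided, array by array, by the 75th percentile of the 57 miRs that all 60 arrays detected, raised to a floor of 6.20 units and taken to log2. All 60 arrays entered 1 fit of 10 groups with limma 3.58.1 (R 4.3.3), adjusted over 159 miRs. The study's methods give the thresholds and name no test for miRs. Python 3.11.15, numpy 2.4.6, pandas 2.3.3, scipy 1.17.1 and matplotlib 3.10.9 served for the rest. Exact permutation tests of 6 against 6 are two-sided and cannot give less than 0.00216. The fit was tested on simulated data.

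Groups and replicate numbers came from the sample labels, and the replicates are separate rats. Slides (9) and scan days (3) came from the file headers. The number of arrays limits the precision. Named were all called miRs, the 5 largest rises and 5 largest falls among the miRs detected on all 12 arrays, the tested members of the lists for retinal neurons, photoreceptors, activity, leukocytes, hypoxia and p53, miRs whose effect differed between time points, and the extremes of other lists; miR-27a, miR-27b, miR-15b and the opposite strands were picked with their values in view. The members and lists were chosen with earlier results of these data known. Of 350 miRs, 222 were matched to a RefSeq sequence, 68 by name, 143 by position and 11 by the naming of the guide strand. The alternatives were other scalings, background correction, floors, filters, blocks, tests and thresholds, the authors' table, brightness as a covariate and leaving out arrays. Leaving out 3 arrays at once was chosen after seeing the data.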

Additional observations from a re-analysis of the deposited data

Results flagged for a closer look

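For the named miRs and the array measures, the 6 arrays of each group were searched for a value far from the other 5. Over 108 groups 21 such values were found. Chance marks about 1 in 20 independent groups without ties, but these groups share the same 12 arrays and some values are tied at the floor. In miR-153 and miR-7b the other 5 IR values all lay at the floor of 2.63. The 21 are therefore not to be read against that rate. Of these, 10 miR values came from sham control replicate 1, the dimmest sham control array (brightness 9.87, itself 1 of the 21). It was the highest of its group for miR-125a-3p (5.12), miR-127 (8.41), miR-140* (6.79), miR-181a (11.53), miR-182 (10.82), miR-210 (9.85) and miR-539 (6.70), and the lowest for miR-146b (4.61), miR-183 (12.07) and miR-9 (5.99). A further 8 came from IR replicate 5, the brightest IR array, lowest of its group for miR-125a-3p (3.91), miR-291a-3p (3.08), miR-346 (3.09) and miR-34a (7.08) and highest for miR-153 (3.35), miR-181a* (5.46), miR-376a (3.94) and miR-551b (5.28). The other 2 were sham control replicate 4 for miR-20b-5p (2.87) and IR replicate 4 for miR-7b (3.26), which was detected on no IR array.

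By limma's test of the difference itself, 5 miRs had an IR effect at 48 h that was unlike the one at 7d. The 48 h effect exceeded that at 7d by 0.97 for miR-21 (adjusted p 0.00884), by 0.81 for miR-551b (adjusted p 0.0278) and by 1.64 for miR-99b* (adjusted p 0.0144). It was below it by -0.36 for miR-338 (adjusted p 0.0144) and by -0.50 for miR-497 (adjusted p 0.00884).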

How the results depend on the processing

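The main counts were 22 called (16 higher, 6 lower), 87 past the adjusted p, and 0 and 5 effects that differed from 24 h and from 7d. Without single arrays these ranged from 18 to 28 called, 13 to 18 higher, 4 to 10 lower, 69 to 89 past the adjusted p, 0 to 1 and 4 to 7, with differences of -48.8 to -31.4 in detected miRs, -1.39 to -0.91 in brightness and -1.22 to -0.80 in the percentile over all miRs. The most calls (28) were reached without IR replicate 5 and the fewest (18) without IR replicate 6. Of the counts, those below moved by over 1.5 times. With the mean of log2 processed signals, 39 were called (10 higher, 29 lower), with 40 and 44 different effects. With normexp, 63 were called (63 higher, 0 lower), with 0 effects that differed from 7d. The percentile over all miRs gave 10 lower and 1 effect that differed from 24 h, that over the miRs detected on all 12 arrays 10 lower and 15 that differed from 7d, and quantile normalization 12 lower, 3 and 13. Without normalization, 121 were called (3 higher, 118 lower), 136 passed the adjusted p and 126 effects differed from 7d. A floor of 1 unit gave 34 called (19 lower). The highest detection limit of any array as floor left 5 called (5 higher, 0 lower: miR-21, miR-20a, miR-466b, miR-672 and miR-206), 35 past the adjusted p and 4 and 2 different effects. Testing miRs detected on any array, or all 350, gave 26 higher in each case and 1 effect that differed from 24 h. Testing the miRs detected on all arrays of a 48 h group gave 14 called (10 higher), on all 12 arrays 7 called (7 higher, 0 lower), 51 past the adjusted p and 3 that differed from 7d, and on all 60 arrays 4 called (4 higher, 0 lower), 31 and 2, fewer miRs being tested. Slide as a block kept 15 of the 22 calls and gave 55 past the adjusted p and 1 that differed from 24 h, slide as a random block 8 that differed from 7d, and brightness as a covariate 2 lower and 55 past the adjusted p. The authors' table gave 48 called (26 lower) and 3 that differed from 24 h, and with a common floor 36 called (12 lower), 4 and 11. Without IR replicates 5 and 6 and sham control replicate 1 together there were 10 lower, 2 and 8. A fold change of 1.5 gave 52 called (28 lower). Apart from the filters, the cause was not tested.

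With normexp the median over all miRs tested was itself 0.85, so a miR that turned positive can still lie below it, as miR-181a* (0.74) does. The other miRs called lower lay above that median: miR-379 (0.93), miR-185 (0.95), miR-30e* (1.03), miR-375 (1.06) and miR-376a (1.08). Of 51 named miRs 18 kept their sign in every setting, and 33 turned in at least 1, 25 of them past the adjusted p in the comparison as reported. Among these 25, signs turned with normexp for miR-127 (0.19), miR-128 (0.64), miR-130a (0.11), miR-132 (0.71), miR-138 (1.02), miR-140* (0.71), miR-150 (1.22), miR-181a* (0.74), miR-182 (0.019), miR-183 (-0.46), miR-185 (0.95), miR-219-5p (1.19), miR-30e* (1.03), miR-338 (0.0298), miR-342-3p (0.0853), miR-375 (1.06), miR-376a (1.08), miR-379 (0.93), miR-497 (0.96) and miR-7a (0.78). Without normalization they turned for miR-125a-3p (-0.0853), miR-146b (-0.40), miR-183 (-0.95), miR-34a (-0.89) and miR-93 (-0.0408), with the mean over probes for miR-183 (-0.30) and miR-34a (-0.0404), with slide as a block for miR-183 (-0.0815) and miR-34a (-0.0808), and with brightness as a covariate for miR-346 (-0.018). The other 8, which did not pass as reported, were miR-153 (1.27), miR-551b (1.06), miR-7b (1.28) and miR-9 (0.28), each value with normexp, miR-96 (-0.51 with normexp, -1.09 without normalization), miR-212 (-1.03) and miR-218 (-1.15) without normalization, and miR-124 (0.03 without sham control replicate 1), and miR-96, miR-212, miR-218, miR-7b and miR-9 turned in further settings.

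The replicate numbers did not pair the samples: the correlations of deviations between arrays of the same number were -0.11, 0.12, -0.14, 0.41, -0.45 and 0.42, and 1 array of 6 correlated best with its own number. With the replicate number as a block 21 were called, miR-207 being lost, and 85 passed the adjusted p, with 7 effects that differed from 7d. The array measures kept their differences in that pairing, each at the smallest exact p it allows, 0.03125. The signal over background limits the reading of dim miRs: 139 of 350 were detected on none of the 12 arrays, the IR arrays being dimmer, and a level at the floor is only a bound.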

Other observations

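Between replicates, the spread of levels was larger in the sham controls than in IR for most miRs detected on all 12 arrays: the median SD was 0.28 in the sham controls and 0.19 in IR, and the IR SD was the larger in 28 of 93 miRs. Sham control replicate 1, flagged above, stood apart in several of these miRs. In miR-182 it lay at 10.82 and the other sham control arrays at 9.66 to 9.81, in let-7f at 8.03 and the others at 9.62 to 9.84. The spread without that array was not tested. When miRs detected on any of the 60 arrays were tested as well, 11 further miRs were called, all higher in IR. Among them was miR-223 of the neutrophils, with 4.23 to 6.72 in IR (median 4.56) and 2.68 to 3.96 in the sham controls (median 3.08). MiR-214 (4.14 to 5.94 against 2.63 to 3.99) was another, and it alone was detected on more IR (3) than sham control arrays (2). Detection ran from 1 array (miR-221 and miR-290, each on a sham control array and no IR array) to 8 arrays (miR-196c) of the 12. MiR-122, miR-196b and miR-483 were detected on fewer IR than sham control arrays as well. The miRs named here were chosen after their values were seen.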
